A study of Mus musculus with 8 samples.

Results

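Villin and 9 partner genes that build the brush border of intestinal epithelial cells were followed in mouse distal colon. The 10 genes were taken by symbol from the 52143 genes of the deposited values (for a repeated symbol, the row with the highest mean). None was chosen by its difference between the groups, but the list was chosen with earlier results of these data known. All 10 were among the 13164 genes that passed the filter for low values, which asked for a TPM of 1 or more in 4 or more samples. TPM (transcripts scaled to a fixed library total) is a transcript's share of a library after correction for its length.

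The brush border is the carpet of microvilli on the luminal face of absorptive cells, each microvillus being a bundle of parallel actin filaments under a tube of plasma membrane. Villin, espin, fimbrin (plastin-1) and EPS8 bind these filaments, myosin-1a ties them to the membrane, and the cadherins CDHR2 and CDHR5 link the tips of neighbouring microvilli. The cytoplasmic tails of these cadherins are held by a complex of harmonin (Ush1c), ANKS4B and myosin-7b, and villin is a classical marker of intestinal epithelium.

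The study asked how the human receptor-like protein Siglec-XII affects mouse gut epithelium when it is switched on there. The 4 control samples came from mice that carried the tamoxifen-inducible recombinase Villin1-Cre-ERT. The 4 Siglec-XII samples came from SIGLEC12-Villin1-Cre-ERT mice, which also carried 1 copy of human SIGLEC12 at the ROSA26 locus, silent until Cre removes a loxP-flanked EGFP and stop segment. Mice of both groups were female and 8 weeks old when tamoxifen began, and the controls were littermates. They received tamoxifen (10 mg/ml) for 5 days and were harvested 7 days after the last dose. The promoter of Vil1 drives Cre in both groups, so Vil1 is a measured gene as well as the source of the driver, and recombination is limited to the cells in which that promoter works. The labels list 4 samples per group whereas the design text speaks of 3 mice per condition, and the paper describes 3 technical libraries from each sample. Whether every sample was a separate mouse or some were repeat libraries of 1 mouse is therefore not certain, so n counts samples and the p-values measure the spread between these samples. Sequencing depth behind each value is unknown, because TPM keeps no count of reads. The values hold no row for SIGLEC12, for EGFP or for Cre. Cre-ERT joins Cre to part of an estrogen receptor, and Esr1, the mouse gene of such a receptor, was among the 5 genes called between the groups. It was 2.46, 1.69, 1.04 and 2.04 log2(TPM + 1) in controls 1 to 4 and 4.72, 4.79, 4.23 and 4.59 in the Siglec-XII samples 1 to 4, so the groups did not overlap (adjusted p = 0.0109 from limma, called in 12 of 19 alternatives with a range of 0.000399 to 0.219). The log2 difference, 2.78, was 2.52 to 3.20 in all 19. Esr1 was chosen after its values were seen. Whether its values include reads from the driver was not tested, so it is open whether both groups carried Cre-ERT at the same level.

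The libraries carried the markers of colon epithelium, and RNA of other tissue as well. All 12 epithelial markers and all 14 markers of surface colonocytes passed the filter, the most abundant being Lgals4 and Lypd8. Of 10 markers of small intestinal enterocytes 4 passed, and Apoa4 was listed at 0 in all 8 samples. Epcam, an adhesion protein of epithelial cells, was 10.52 ± 0.19 log2(TPM + 1) in the controls and 10.52 ± 0.15 in the Siglec-XII samples (mean ± SD, n = 4 per group). In none of the 12 cell type lists examined was a gene called between the groups, a call made for 0.038% of the genes tested. The smallest adjusted p from limma was 0.333, for the neutrophil gene S100a8. At an unadjusted p of 0.05 from limma, 5 of 10 smooth muscle and 3 of 8 crypt markers were lower, where 7.67% of all genes were. Of 8 goblet cell markers 1 was higher, where 1.19% of all genes were. Markers of stratified squamous epithelium, a tissue that colon does not contain, were also present, and these and the skeletal muscle markers were chosen after the data were seen. The summed TPM of 15 squamous markers, led by Krt14 in control 1, was 27141, 2591, 2365 and 14911 in controls 1 to 4 and 2798, 7190, 1224 and 1541 in the Siglec-XII samples 1 to 4, and none was at 0. That is 2.71% of all TPM in control 1 and 0.122% in Siglec-XII 3. All 15 were below 0 between the groups (median -1.36), as were 10276 of the 13164 genes tested, and none was called by limma. The summed TPM of 9 skeletal muscle markers was 21.1, 52.9, 46.4 and 19.8 in the controls and 77.1, 80.2, 132.3 and 38.4 in the Siglec-XII samples, led by Ckm in control 1 and by Acta1 in the others, with Myh4 at 0 in 3 samples and Pvalb in 1. All 5 that were tested were above 0 (median 1.19) and higher at an unadjusted p of 0.05, where 1.19% of all genes were higher, and none was called. Of the 3 libraries with low brush border genes (control 1 and Siglec-XII 3 and 4), control 1 had the highest squamous sum and the other two the lowest. The part of this other tissue in the values of the brush border genes was not tested.

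In these samples the 10 brush border genes were all well expressed, over a wide range of levels. Cdhr5, the mucin-like protocadherin of the microvillus tip, was highest with a mean over 8 samples of 8.66 log2(TPM + 1) and a median TPM of 434.4. Next came Vil1 (mean 7.76 log2(TPM + 1), median TPM 234.0), Myo1a (7.67, 213.9), Cdhr2 (6.97, 138.8), Ush1c (6.57, 97.8), Pls1 (6.04, 67.6), Eps8 (5.64, 57.2), Espn (5.63, 49.1), Anks4b (5.33, 40.9) and Myo7b (4.44, 25.4). In this order Vil1 and Myo1a were not apart, differing by 0.09 log2 units with an SD of 0.12 over samples, and Vil1 was the higher in 7 of 8 samples. Eps8 and Espn were not apart either, with a mean difference of 0.01 and an SD of 0.40, Eps8 being higher in 5 of 8 samples. Cdhr2 stood above Ush1c and Espn above Anks4b in 7 of 8 samples. The other 5 neighbouring pairs kept their order in all 8 samples. All parts of the tip link complex were present, the cadherin Cdhr5 at the top and its motor Myo7b at the bottom of the range.

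**Figure D1:**
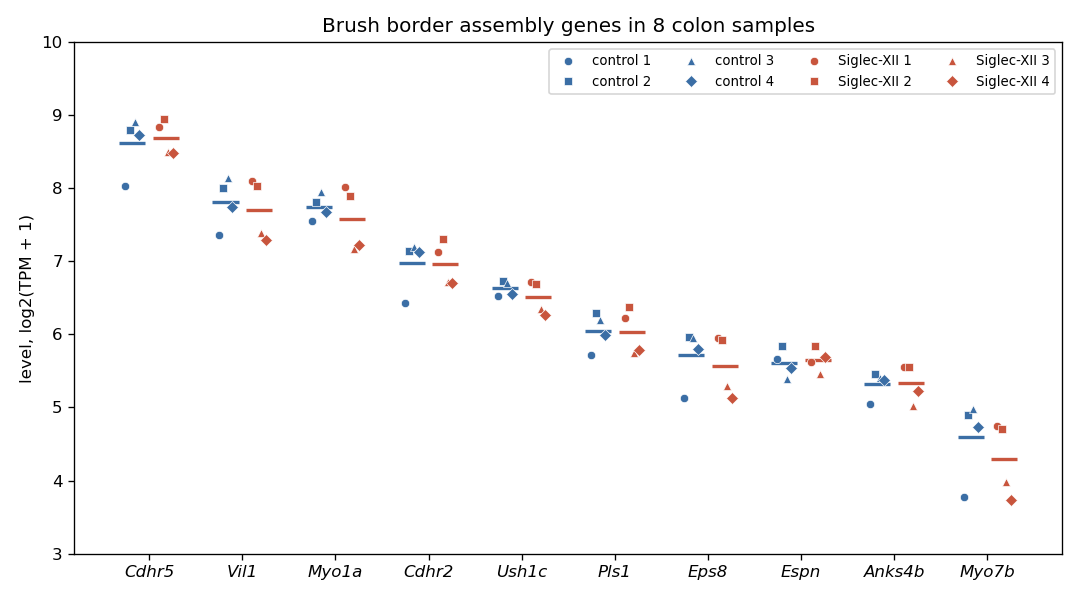
Level of each brush border gene in each of the 8 samples, as log2(TPM + 1), ordered from the highest mean (Cdhr5, 8.66) to the lowest (Myo7b, 4.44). Blue marks are control and red marks Siglec-XII samples, the marker shape gives the sample number, and horizontal bars are group means of 4 samples. Blue and red marks overlap in every gene.

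Vil1 (ENSMUSG00000026175), which encodes the actin-bundling and actin-severing protein villin, lies on chromosome 1 of GRCm38 (plus strand) between 74409376 and 74435559. It was 7.37, 8.0, 8.14 and 7.74 log2(TPM + 1) in controls 1 to 4 and 8.10, 8.03, 7.39 and 7.29 in the Siglec-XII samples 1 to 4. Control 1 and Siglec-XII 3 and 4 were low and the other 5 samples higher, so each group held high and low samples and the ranges overlapped. The means were 7.81 ± 0.34 in the controls and 7.70 ± 0.42 in the Siglec-XII samples (mean ± SD, n = 4 per group). The difference of -0.11 (standard error 0.230) had a 95% interval from -0.63 to 0.41 and, from limma over all genes tested, an adjusted p of 0.823. Of the 31-base windows of Vil1 transcripts, 0.592% also occur in other genes, 0.535% in Usp37, which overlaps Vil1 on the opposite strand.

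Of the other genes of the actin core, Eps8 (ENSMUSG00000015766), a protein of filament ends at the microvillus tip, was 5.14, 5.97, 5.95 and 5.80 log2(TPM + 1) in controls 1 to 4 and 5.95, 5.92, 5.29 and 5.13 in the Siglec-XII samples 1 to 4. Its low samples were those of Vil1. Eps8 lies on chromosome 6 (minus strand) between 137477245 and 137654876, where Gm44106 overlaps it on the same strand. Pls1, which encodes the filament-bundling fimbrin, was 5.72, 6.29, 6.20 and 5.99 in the controls and 6.23, 6.37, 5.75 and 5.79 in the Siglec-XII samples, again lowest in control 1 and Siglec-XII 3 and 4. Myo1a, the motor that joins filaments to membrane, was 7.55, 7.82, 7.96 and 7.67 in the controls and 8.02, 7.90, 7.18 and 7.23 in the Siglec-XII samples. The same 3 samples were lowest, with control 1 nearer to the other samples than it was in Vil1. Espn (ENSMUSG00000028943), on chromosome 4 (minus strand) between 152120331 and 152152371, encodes the bundling protein espin. It was 5.66, 5.84, 5.39 and 5.54 in the controls and 5.63, 5.84, 5.46 and 5.69 in the Siglec-XII samples. Control 1 and Siglec-XII 4 were above the mean of Espn, and its lowest sample was control 3, in which Vil1 was highest.

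The tip link genes repeated the pattern of Vil1. Cdhr2 was 6.43, 7.15, 7.20 and 7.13 log2(TPM + 1) in controls 1 to 4 and 7.13, 7.31, 6.71 and 6.70 in the Siglec-XII samples 1 to 4. Cdhr5 (ENSMUSG00000025497, chromosome 7, minus strand, between 141269083 and 141276786), with which CDHR2 pairs between microvilli, was 8.04, 8.79, 8.91 and 8.74 in the controls and 8.84, 8.95, 8.49 and 8.48 in the Siglec-XII samples. In both cadherin genes control 1 was the lowest sample, and Siglec-XII 3 and 4 lay between it and the other 5.

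Among the genes that anchor the cadherins, Ush1c, the scaffold harmonin, was 6.53, 6.73, 6.71 and 6.56 log2(TPM + 1) in controls 1 to 4 and 6.72, 6.69, 6.35 and 6.27 in the Siglec-XII samples 1 to 4. Anks4b, the ankyrin repeat scaffold, was 5.05, 5.46, 5.40 and 5.37 in the controls and 5.56, 5.56, 5.02 and 5.22 in the Siglec-XII samples. Myo7b, the motor of the complex, was 3.78, 4.90, 4.98 and 4.73 in the controls and 4.74, 4.71, 3.98 and 3.73 in the Siglec-XII samples. Myo7b varied most of the 10 genes, its highest TPM being 2.50 times its lowest, against 1.37 times for Espn and 1.39 times for Ush1c, which varied least. In the other 7 this ratio lay between 1.47 (Anks4b) and 1.88 (Cdhr5). For Ush1c, 2.27% of 31-base windows also occur in the antisense gene Gm9860 and for Anks4b 1.82% occur elsewhere, and for the other members at most 0.592% did, so their reads could be assigned nearly without overlap.

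None of the 10 genes was called between Siglec-XII and control samples by limma at an adjusted p of 0.05, a call made for 0.038% of the genes tested (5 of 13164). At an unadjusted p of 0.05 again 0 of 10 passed, against 8.87% of the genes tested, and in 0 of 10 did the groups separate without overlap, against 5.11%. The smallest adjusted p among the members was 0.637, in Ush1c, whose difference was -0.12 (standard error 0.124, 95% interval -0.40 to 0.16). The largest difference on the deposited scale was that of Myo7b, from 4.60 ± 0.56 to 4.29 ± 0.51 (mean ± SD, n = 4 per group). This is -0.31, with a 95% interval from -1.03 to 0.42 and a limma adjusted p of 0.645. Single samples decide its size, which was -0.58 without control 1 and -0.12 without Siglec-XII 4, with no call in either. For Cdhr5 the difference was 0.07 (-0.38 to 0.52), for Cdhr2 -0.02 (-0.48 to 0.45), for Myo1a -0.17 (-0.63 to 0.29) and for Eps8 -0.14 (-0.70 to 0.42). For Pls1 it was -0.02 (-0.42 to 0.39), for Anks4b 0.02 (-0.32 to 0.36) and for Espn 0.04 (-0.24 to 0.33). These intervals leave room for moderate changes in either direction, and a p that misses the threshold does not show that the levels were equal.

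**Figure D2:**
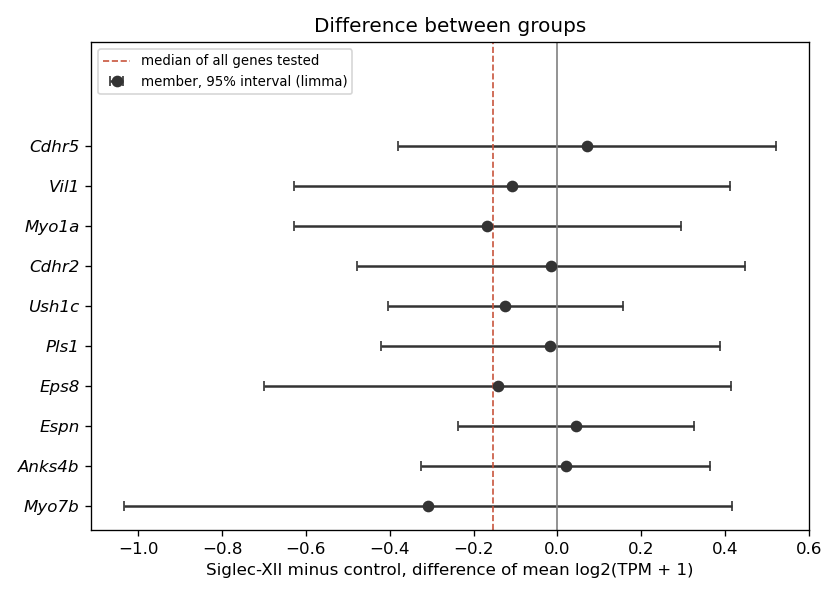
Difference in mean log2(TPM + 1), Siglec-XII minus control, for each brush border gene (points) with its 95% interval from limma (bars, n = 4 per group). All 10 intervals cross 0, the widest being that of Myo7b (-1.03 to 0.42). The dashed line is the median difference of all 13164 genes tested, -0.15.

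The direction of these small differences depended on the scaling. On the deposited scale 7 of the 10 members were below 0 and 3 above, with a median of -0.06, and 10276 of the 13164 genes tested were below 0, with a median of -0.15. The medians were not tested against each other, and Myo7b and Myo1a lay below that of all genes. Centring each sample on its median, which moved the median of all genes to 0.06, put 9 members above 0 and left Myo7b below it, with a median of 0.15. The largest difference was then 0.28, in Cdhr5, and that of Myo7b was -0.10. Anks4b then had an unadjusted p of 0.0407 and a limma adjusted p of 0.459 (range over alternatives 0.459 to 1). Quantile normalization put 5 members above 0 and 5 below, whereas centring on the epithelial markers left 3 above and 7 below. Over all genes, unadjusted calls split into 157 higher and 1010 lower on the deposited scale and into 1137 and 285 after median centring. They split into 704 and 408 after quantile normalization and into 100 and 1975 after centring on the epithelial markers.

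Across samples the members moved together rather than by group. In 9 of the 10 genes, all but Espn, the 3 lowest samples were control 1, Siglec-XII 3 and Siglec-XII 4, a set that was also the lowest for 33.5% of the genes tested. The 10 members were below their own mean in 9 cases in control 1, 10 in Siglec-XII 3 and 9 in Siglec-XII 4. In controls 2, 3 and 4 they were below it in 0, 1 and 4 cases, and in Siglec-XII 1 and 2 in 1 and 0. The summed TPM of the 10 genes was 969.8, 1436, 1505 and 1303 in controls 1 to 4 and 1490, 1521, 1035 and 1028 in the Siglec-XII samples 1 to 4. This sum shows the same 3 low samples, in 1 control and 2 Siglec-XII libraries.

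**Figure D3:**
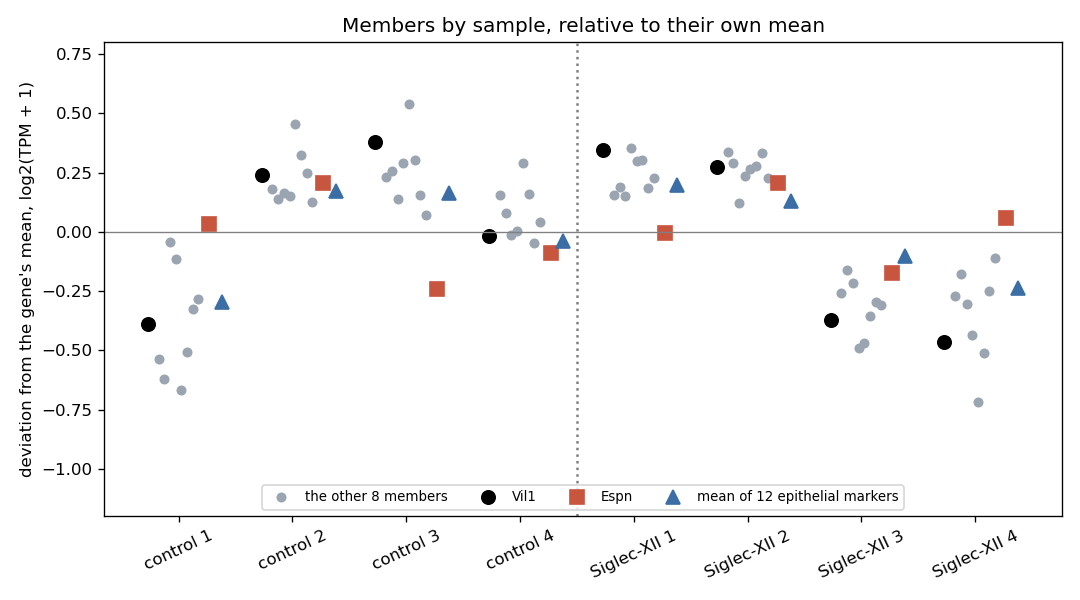
Deviation of each brush border gene from its own mean over the 8 samples, in log2(TPM + 1), for Vil1 (black), Espn (red squares) and the other 8 genes (grey), with the mean of 12 epithelial markers (blue triangles). Control 1 and Siglec-XII 3 and 4 lie below 0 in Vil1 (-0.39, -0.37 and -0.47) and in the 8 grey genes, whereas Espn lies at 0.03 in control 1 and 0.06 in Siglec-XII 4.

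Some other measures of these libraries moved with the members and some did not. The mean of the 12 epithelial markers was 9.41, 9.87, 9.86 and 9.66 log2(TPM + 1) in controls 1 to 4 and 9.90, 9.83, 9.60 and 9.47 in the Siglec-XII samples 1 to 4, and all 12 were above 0 in every sample. Their summed TPM was 15489 in control 1, 18249 in Siglec-XII 3 and 16000 in Siglec-XII 4 and between 17154 and 20644 in the other 5, with Lgals4, the most abundant, from 4586 to 5672. Vil1 lay farther below this mean in the same 3 samples, at -2.04, -1.87, -1.73 and -1.92 in controls 1 to 4 and at -1.79, -1.80, -2.21 and -2.17 in the Siglec-XII samples 1 to 4. The summed TPM of 10 leukocyte markers was 71.2, 40.2, 27.1 and 76.4 in the controls and 17.6, 16.0, 29.8 and 28.9 in the Siglec-XII samples, with Cd79a at 0 in Siglec-XII 3. Lyz2 had the highest mean of them, but S100a8 was above it in controls 2, 3 and 4. That of 10 smooth muscle markers was 926.0, 697.5, 1105 and 890.7 in the controls and 712.5, 625.9, 708.6 and 333.4 in the Siglec-XII samples, and none was at 0. That of 8 goblet cell markers, led by Zg16, was highest in Siglec-XII 3 (15604) and Siglec-XII 4 (17172), against 11245 to 13342 in the other 6, and none was at 0. Their mean of log2(TPM + 1), in which each gene weighs alike, was highest in Siglec-XII 4 (9.55), but Siglec-XII 3 (9.40) lay below control 2 (9.42). The summed TPM of 14 surface colonocyte markers was 23735 in control 1, 27588 in Siglec-XII 3 and 27981 in Siglec-XII 4 and from 27218 to 29076 in the other 5, so of the 3 libraries only control 1 was below that range. By the mean of log2(TPM + 1) control 1 (8.76), Siglec-XII 3 (8.64) and Siglec-XII 4 (8.87) were all within the range of the other 5 (8.58 to 9.02). This mean includes Emp1, which was 9.11 in control 1 and 8.32 in control 4 but 6.13 to 7.11 in the other samples. Controls 1 and 4 also had the highest squamous sums. The summed TPM of 8 crypt stem and cycling cell markers was 160.2, 230.6, 214.7 and 201.8 in the controls and 175.4, 161.6, 144.0 and 95.8 in the Siglec-XII samples. This sum was lowest in Siglec-XII 4, Siglec-XII 3 and control 1. By the mean of log2(TPM + 1) Siglec-XII 4 (2.97) and Siglec-XII 3 (3.47) were lowest, and Siglec-XII 2 (3.72) lay below control 1 (3.76). All 8 markers were below 0 between the groups, with a median of -0.56 on the deposited scale and -0.35 after median centring. So were all 10 smooth muscle markers, with -0.66 and -0.45. On the deposited scale 10276 of the 13164 genes tested were below 0. At an unadjusted p of 0.05 from limma, 3 of the 8 and 5 of the 10 were lower, where 7.67% of all genes were lower. After median centring 2 and 4 were lower, where 285 of all 13164 genes were. No gene of either list was called by limma, a call made for 0.038% of the genes tested. The shift of the median gene from its mean was -0.04, 0.15, 0.08 and 0.10 log2 units in the controls and 0.10, 0.06, -0.16 and -0.30 in the Siglec-XII samples. Values of a sample also leaned with transcript length, by -0.02, 0.03, 0.05 and 0.02 log2 units per doubling of length in the controls and by 0.05, 0.03, -0.06 and -0.09 in the Siglec-XII samples. After removal of that trend the median member stood at -0.34 in control 1, -0.25 in Siglec-XII 3 and -0.23 in Siglec-XII 4, against -0.36, -0.30 and -0.29 before. The part of these cell type markers and library measures in the pattern of the brush border genes was not tested. In bulk tissue fewer epithelial cells and less RNA of these genes per cell cannot be told apart.

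Relative to Vil1 most members, but not Ush1c and Espn, kept closer proportions than their own levels did. Eps8 lay at -2.23, -2.03, -2.19 and -1.94 log2 units from Vil1 in controls 1 to 4 and at -2.16, -2.11, -2.10 and -2.16 in the Siglec-XII samples 1 to 4. The SD of this gap over 8 samples was 0.09, against 0.39 for the level of Eps8. The gap to Vil1 also varied less than the level in Myo1a (0.12 against 0.32), Pls1 (0.14 against 0.26), Cdhr2 (0.16 against 0.31), Cdhr5 (0.19 against 0.31), Anks4b (0.20 against 0.21) and Myo7b (0.21 against 0.52). It varied more than the level in Ush1c (0.21 against 0.18) and in Espn (0.38 against 0.16). Such proportions were not particular to Vil1. Measured from the mean of the epithelial markers, the gap had a smaller SD in Ush1c (0.11), Pls1 (0.11), Anks4b (0.11), Cdhr5 (0.15) and Espn (0.24). Its SD was larger in Eps8 (0.21), Myo1a (0.20) and Myo7b (0.35), and in Cdhr2 it was 0.16 from either reference. The gaps were not computed for genes outside the members. Espn ranged from -1.60 in Siglec-XII 4 to -2.74 in control 3 relative to Vil1, a span of 1.14 log2 units. Between groups the gaps to Vil1 overlapped in all 9 genes, with Cdhr5 at 0.81 ± 0.14 in the controls and 0.99 ± 0.20 in the Siglec-XII samples and Myo7b at -3.21 ± 0.26 and -3.41 ± 0.11 (mean ± SD, n = 4 per group).

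As a measure of likeness, Pearson's r with Vil1 over the 8 samples was 0.97 for Eps8, 0.95 for Myo7b, 0.94 for Pls1 and Myo1a, 0.92 for Ush1c, 0.90 for Cdhr2, 0.89 for Anks4b and 0.86 for Cdhr5. For Espn it was 0.10. Spearman's rho was 0.86, 0.88, 0.71, 0.90, 0.81, 0.86, 0.76 and 0.90 for these 8 genes in turn, with Pls1 before Myo1a, and -0.21 for Espn. The samples share the low and high libraries described above, with 3 values of Vil1 between 7.29 and 7.39 and 5 between 7.74 and 8.14, so r includes the difference between these 2 sets. It was not computed within a set, as each holds under 6 samples, and the relation was not tested. Many genes shared it: the median r with Vil1 of all genes tested was 0.58 and 28.0% reached 0.8, as did 8 of the 9 members. Without Siglec-XII 4 and control 1, the samples farthest from the median of Vil1, r was between 0.88 (Cdhr2) and 0.98 (Myo1a) in the 8 genes and 0.34 in Espn. This leaves Siglec-XII 3 as the only low library. In that setting the median r of all genes was 0.51, and 26.9% reached 0.8. After median centring r was 0.92 for Eps8, 0.85 for Myo1a and Myo7b, 0.80 for Pls1, 0.78 for Cdhr2 and 0.73 for Cdhr5. It was then 0.57 for Anks4b, 0.49 for Ush1c and -0.27 for Espn, beside a median of -0.05 over all genes. After centring on the epithelial markers r was 0.89 for Eps8, 0.87 for Myo7b, 0.79 for Myo1a, 0.64 for Pls1, 0.58 for Cdhr2, 0.39 for Cdhr5, 0.17 for Anks4b, 0.07 for Ush1c and -0.60 for Espn, with a median of -0.14 over all genes. The number of members that reached 0.8 was then 2 of 9, beside 4.27% of all genes. It was 4 of 9 after median centring, beside 5.83%, and 7 of 9 after quantile normalization, beside 11.62%. Among the 36 pairs of the 9 members without Espn, r ran from 0.61 to 0.99 with a median of 0.89, and Espn reached at most 0.37 with any of them.

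**Figure D4:**
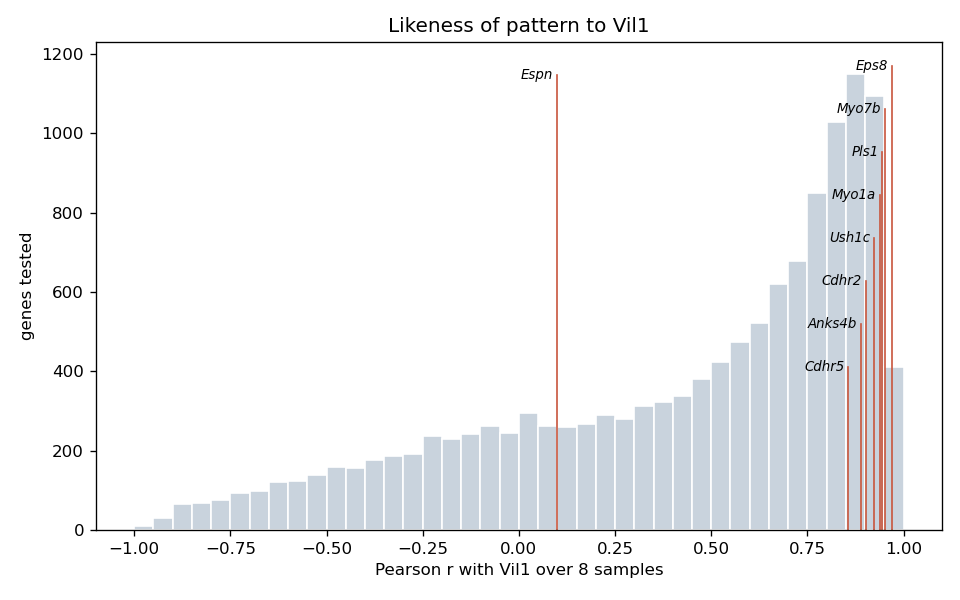
Number of genes tested by Pearson's r with Vil1 over the 8 samples, in steps of 0.05, with the 9 other brush border genes marked by red lines. The other 8 lie between 0.86 (Cdhr5) and 0.97 (Eps8), inside the peak that many genes form on the right, and Espn lies at 0.10.

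The 10 genes with the highest r with Vil1 were Sel1l3 (0.998), Tbc1d8b, Eef2k, Dock5, Chdh, Hoxa3, Itgb4, Atp2a3, Erbb2 and Tm9sf4 (0.988), none of them a member. Eps8 was the closest member, at rank 133 of 13163 other genes. Sel1l3 was 4.87, 5.37, 5.50 and 5.21 log2(TPM + 1) in controls 1 to 4 and 5.45, 5.40, 4.86 and 4.81 in the Siglec-XII samples 1 to 4, which follows Vil1 sample by sample.

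None of the further brush border genes was called either. Of 26 other genes of microvilli and apical trafficking 25 were tested, 0 were called by limma at an adjusted p of 0.05, and 2 were lower and 0 higher at an unadjusted p of 0.05, where 7.67% and 1.19% of all genes were lower and higher. Their median difference was -0.18, against -0.15 for all genes. After median centring 2 were higher and 2 lower with a median of 0.03, where 1137 of all 13164 genes were higher and 285 lower. Those with the smallest p were the kinase gene Slk (-0.52), the myosin gene Myo6 (-0.57) and Slc9a3r2 (-0.26), each with an adjusted p of 0.515 from limma. Ezr, which encodes the membrane linker ezrin and had the highest mean, was 8.49 ± 0.31 in the controls and 8.31 ± 0.51 in the Siglec-XII samples (mean ± SD, n = 4 per group), with r of 0.96 with Vil1. In 13 of the 25 genes r with Vil1 was at least 0.8, a level that 28.0% of all genes reached. Calml4, the light chain of myosin-7b, and Tmigd1 were chosen after their values were seen, as the lowest in r (-0.69 and -0.78). Calml4 was 7.86, 7.86, 7.66 and 7.77 log2(TPM + 1) in controls 1 to 4 and 7.84, 7.85, 7.91 and 8.10 in the Siglec-XII samples 1 to 4, highest in Siglec-XII 4 where Myo7b was lowest.

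Of 15 brush border peptidases, phosphatases and disaccharidases 8 were tested and none was called. Anpep (-0.50) and Naaladl1 (-0.45), both with an adjusted p of 0.515 from limma, were lower at an unadjusted p of 0.05, where 7.67% of all genes were. After median centring 0 of the 8 were lower and 1 was higher at that threshold, where 285 of all 13164 genes were lower and 1137 higher. The most abundant, the metalloprotease gene Mep1a, was 6.94 ± 0.37 log2(TPM + 1) in the controls and 7.01 ± 0.27 in the Siglec-XII samples (mean ± SD, n = 4 per group). Of the 8 gelsolin family genes 7 were tested. Vil1 and Gsn were not apart in level, at 7.81 and 7.85 in the controls and 7.70 and 7.61 in the Siglec-XII samples. Svil had the smallest p there (-0.54, adjusted p = 0.515 from limma), ahead of Capg (-0.28) and Gsn (-0.24). Of 22 close relatives of the members 14 were tested and none was called. The plastin gene Pls3, a relative of Pls1, was 4.44 ± 0.89 in the controls and 3.06 ± 0.65 in the Siglec-XII samples (mean ± SD, n = 4 per group; adjusted p = 0.515 from limma). Its highest samples were controls 1 and 4, those with the highest squamous sums. The relative Eps8l3 was 7.76 ± 0.14 and 7.74 ± 0.29, above Eps8 itself and not apart from Gsn. Of 10 genes of hair cell stereocilia, which use related cadherin links, 9 had a row and 4 were tested. Cib2, which had the highest mean of these over 8 samples but not in the Siglec-XII samples alone, was 2.68 ± 0.91 and 1.86 ± 0.34, again highest in controls 1 and 4.

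Of the 11 transcription factors of gut epithelium or actin genes that were tested, 9 had an r with Vil1 of at least 0.8, with a median of 0.92. Of all genes 28.0% reached 0.8, with a median of 0.58. Hnf4a was among the 9 and Cdx2 was not. Hnf4a, a nuclear receptor of enterocyte genes, was 7.94, 8.47, 8.46 and 8.29 log2(TPM + 1) in controls 1 to 4 and 8.54, 8.43, 7.83 and 7.78 in the Siglec-XII samples 1 to 4, with r of 0.98 with Vil1. Cdx2, an intestinal homeobox gene, was 3.66, 3.85, 2.37 and 3.18 in the controls and 3.14, 2.97, 2.86 and 3.19 in the Siglec-XII samples, with r of -0.25. None of the 11 was called, Klf5 (-0.30) and Hnf4g (0.26) included. All 14 general actin genes were tested, none was called, and 14 of 14 were below 0 on the deposited scale, with a median of -0.14 beside -0.15 for all genes, but 3 of 14 after median centring. Actg1, the most abundant, was 10.93 ± 0.16 in the controls and 10.66 ± 0.40 in the Siglec-XII samples (mean ± SD, n = 4 per group), and Actb 10.30 ± 0.15 and 10.16 ± 0.32.

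The windows around the start sites of members were searched for short motifs, of which those for CDX2 and HNF4 are known for gut epithelial genes. RefSeq windows of 300 bases on GRCm38.p6, from 250 bases before to 50 after a start, were used for 8 of the 10 members (Espn has 3 windows), and Eps8 and Myo7b are named only. The motifs, on both strands, were TTTATG (known for CDX2), CAAAGTNCA (known for HNF4), GGGCGG (the GC box) and the letters TATAAA. The windows shown are those of Vil1, of Cdhr5 and Anks4b, which hold a CDX2 or HNF4 motif, and of Espn, the gene that did not follow the others. Capitals mark the matches, which do not overlap one another, and each window runs 5′ to 3′ on the strand of its gene. They lie at chr1:74409134-74409433 (Vil1, plus strand), chr7:141276737-141277036 (Cdhr5, minus), chr7:120173608-120173907 (Anks4b, plus) and chr4:152152340-152152639 (Espn, minus).
Vil1: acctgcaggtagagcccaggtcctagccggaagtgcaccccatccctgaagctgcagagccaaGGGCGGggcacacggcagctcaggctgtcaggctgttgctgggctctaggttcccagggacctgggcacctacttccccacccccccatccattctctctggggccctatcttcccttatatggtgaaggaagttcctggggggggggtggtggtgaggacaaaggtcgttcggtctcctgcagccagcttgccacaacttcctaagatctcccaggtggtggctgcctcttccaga
Cdhr5: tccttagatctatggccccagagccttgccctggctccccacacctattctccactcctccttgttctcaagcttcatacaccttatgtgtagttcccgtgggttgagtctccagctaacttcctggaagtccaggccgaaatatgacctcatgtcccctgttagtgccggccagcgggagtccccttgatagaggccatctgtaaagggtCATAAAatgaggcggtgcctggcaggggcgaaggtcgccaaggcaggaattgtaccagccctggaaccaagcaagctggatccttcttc
Anks4b: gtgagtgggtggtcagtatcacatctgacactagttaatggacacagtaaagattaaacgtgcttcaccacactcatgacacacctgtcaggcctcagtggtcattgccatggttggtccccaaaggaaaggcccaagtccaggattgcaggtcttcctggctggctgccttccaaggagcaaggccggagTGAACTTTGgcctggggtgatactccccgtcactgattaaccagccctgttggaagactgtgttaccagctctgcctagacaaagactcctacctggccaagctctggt
Espn: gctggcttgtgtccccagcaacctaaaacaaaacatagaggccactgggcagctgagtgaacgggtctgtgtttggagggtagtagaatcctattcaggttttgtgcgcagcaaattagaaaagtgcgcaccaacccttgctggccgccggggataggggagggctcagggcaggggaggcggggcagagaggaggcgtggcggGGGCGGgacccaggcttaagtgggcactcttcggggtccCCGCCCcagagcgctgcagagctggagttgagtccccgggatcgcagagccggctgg
The Vil1 window held 1 GC box, Cdhr5 held 1 CDX2 motif on the opposite strand, Anks4b held 1 HNF4 motif on the opposite strand, and this Espn window held 2 GC boxes. Another Espn window held 1 CDX2 motif and 1 GC box, Ush1c held 1 GC box, and the windows of Cdhr2, Myo1a and Pls1 held none of the 4. Of all 32851 windows, 11.8% held TTTATG, 1.41% CAAAGTNCA, 35.7% GGGCGG and 13.6% TATAAA. In the windows searched, which leave out Eps8 and Myo7b, no motif was common to the members that moved together. A match is a description of letters, not a site, and the part of any motif in the pattern was not tested.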

How the data were processed

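RNA of distal colon from 4 control and 4 Siglec-XII samples was sequenced as paired reads. The authors deposited 1 log2 value per gene and sample, log2(TPM + 1), for 52143 Ensembl genes. The submitters' processing notes name kallisto 0.45.0 and GRCm38, whereas the paper's methods name another kallisto release and a human reference, and the labels and methods name different library kits. Depth is unknown, so no counting intervals were computed. Symbols were repeated in 718 rows, and look-ups by symbol took the row of highest mean.

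Groups were compared with limma 3.58.1 under R 4.3.3 (functions lmFit and eBayes, the latter with a trend) on genes that reached a TPM of 1 in 4 or more samples, with Benjamini-Hochberg adjustment over all 13164, after a test of the fit on simulated data. Positions, lengths and 31-base windows are from GENCODE M21 (GRCm38), which holds 98.3% of the gene identifiers. Python 3.11.15, scipy 1.17.1 and matplotlib 3.10.9 were used for the rest.

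Genes named are all 10 members. From each list the text names up to 3 tested genes with the smallest p and the most abundant gene, and any list gene called. The 10 genes with the highest r with Vil1 and the reference genes Epcam, Cdx2, Hnf4a, Actb and Ezr complete the rule, and Esr1 was added after its values were seen. Not every gene the rule allows is described. The members and lists were chosen with earlier results of these data known. Permutation p-values planned for the correlations with Vil1 are not given, because the samples fell into sets of 3 and 5. The squamous and skeletal muscle lists were added after the data were seen. Alternatives were other filters, pseudocounts, scalings and weights, a replicate block and each sample left out. A correction for transcript length, the omission of 3 libraries together and, for r, the omission of the samples farthest from the median of Vil1 were added after seeing the data.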

Additional observations from a re-analysis of the deposited data

Results flagged for a closer look

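In 1 of the 20 groups of 4 values formed by the 10 brush border genes and both groups of mice, 1 sample lay far from the others. Cdhr2 was 6.43 log2(TPM + 1) in control 1 and 7.13 to 7.20 in controls 2 to 4, and the gap to the nearest control made up 0.903 of the range of the group. Chance flags about 1 in 20 groups. Without control 1 the difference of Cdhr2 was -0.20, against -0.02 with it, and its adjusted p stayed above the threshold in all alternatives (0.495 to 1 from limma).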

How the results depend on the processing

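No brush border gene was called by limma under any of the 19 alternatives, and the smallest adjusted p of a member in any of them was 0.343. The number of genes called over the whole table, 5, was 8 without a filter, 3 with a TPM of at least 5, 18 with array weights and 3 without moderation of the variance. It was 2 without control 1, Siglec-XII 3 and Siglec-XII 4 together (an alternative chosen after seeing the data), and from 2 (without Siglec-XII 2) to 6 (without control 3 or without control 4) when single samples were dropped, with 3 without Siglec-XII 1 or Siglec-XII 4. With fewer genes or samples tested these counts can fall by construction, and the cause of the other changes was not tested. The median difference of the 10 members, -0.06, ranged from -0.18 without control 1 to 0.15 with median centring. Array weights, median centring and the loss of the 3 libraries each changed the sign of 6 members, quantile normalization and the correction for length that of 2, and the loss of a single sample that of 1 to 4. In these 3 settings with 6 changes Myo7b alone of the 10 stayed below 0. The median r of 9 members with Vil1, 0.92, was 0.78 after median centring and 0.58 after centring on the epithelial markers, where the cause was not tested, and between 0.91 and 0.94 when single samples were dropped. The median level relative to Vil1 was -1.72 log2 units, and -1.73 under a pseudocount of 0.1. With the sample number as a replicate block 4 genes and 0 members were called, and the median of the members was -0.06. Deviations of same-numbered samples correlated at -0.16, -0.20, 0.10 and -0.0025 over genes for numbers 1 to 4, so the numbers were not taken to pair the samples. Depth is unknown, and 4 samples per group limit the precision.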
